A study of Mus musculus with 18 samples.

Results

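Multinucleated osteoclasts and the giant cells that IL-4 can induce both arise when macrophages fuse, and 10 genes of this fusion and osteoclast programme were followed in mouse bone marrow-derived macrophages (BMM, macrophages grown from bone marrow with the growth factor CSF1). The genes are Tnfrsf11a, Oscar, Nfatc1, Ocstamp, Dcstamp, Itgb3, Atp6v0d2, Acp5, Ctsk and Calcr. They were found by the gene name printed for each array probe, with Ocstamp and Dcstamp listed under their older symbols 4833422F24Rik and Tm7sf4. All 10 were present among 25370 gene or transcript names on the array, through 15 of the 41174 probes that are not controls. Of those 15 probes, 14 were among the 27514 tested, which are those whose signal was well above background in 1 or more groups on every one of its 3 arrays. The remaining one, the second Calcr probe, was well above background on 0 of 18 arrays.

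RNA was measured on 18 single-colour arrays in 6 groups of 3, which cross 2 genotypes with 3 culture conditions. The groups were Irf4-/- BMM in mock culture for 18 h, with IL-4 for 4 h and with IL-4 for 18 h, and Irf4+/- BMM under the same 3 conditions. IL-4 was mouse recombinant protein given from day 7 at 10 ng/ml, and all cells had been grown in human rCSF1 at 200 ng/ml. All mice were C57BL6/J, aged 8 to 12 weeks, and the marrow of several animals was pooled before plating. Letters A, B and C mark 3 independent experiments with littermates, and the labels list 2 males and 1 female for each sample without tying a sex to an experiment. The control genotype still carries 1 Irf4 allele. Mock culture lasted 18 h only, so the 4 h response was read against an 18 h mock. The labels name no RANK ligand among the additions.

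Osteoclasts form when CSF1 and RANK ligand act on myeloid precursors: RANK, the product of Tnfrsf11a, together with costimulatory receptors such as OSCAR raises the transcription factor NFATc1. NFATc1 in turn drives genes for cell fusion, for attachment to bone and for acid and protease secretion, and many of the members described here are among its known targets. IL-4 acts through STAT6, is known to hold back osteoclast formation from precursors, and also makes macrophages fuse into giant cells, for which E-cadherin and DC-STAMP are known to matter. IRF4 is a transcription factor induced by IL-4 and has a known part in IL-4 polarisation of macrophages.

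Levels are log2 intensities minus the 75th percentile of the same array, so a level of 0 is that percentile, and levels of different probes are not set against each other. Between 63.4% and 74.4% of the spots of an array were well above background. All 7 macrophage markers examined, Csf1r, Adgre1, Itgam, Cd68, Lyz2, Fcgr1 and Mertk, were well above background on all 18 arrays. At 18 h 2 of the 7 were lower than mock in each genotype at an adjusted p under 0.05 in limma, in a fit with the experiment as a block and not without it, when 14.4% of all probes passed in Irf4-/- cells and 12.5% in Irf4+/- cells. Fcgr1 ranged from 3.09 to 6.23 after 18 h of IL-4 against 5.94 to 7.27 in mock culture of Irf4-/- cells, and from 3.31 to 5.89 against 6.71 to 7.16 in Irf4+/- cells. The summed level of the 7 markers overlapped mock culture in both genotypes. It lay between 9.0 and 10.0 at 18 h against 8.8 to 9.7 in mock culture of Irf4-/- cells, and between 9.3 and 9.7 against 9.5 to 9.7 in Irf4+/- cells. In bulk RNA, fewer cells of a type and less RNA per cell cannot be told apart. The summed level of 4 B-lineage markers, 3 of them above background on all 18 arrays, lay between -0.11 and 0.23 after 18 h of IL-4 against 0.37 to 0.87 in mock culture in Irf4-/- cells, and between 0.20 and 0.82 after 18 h against 0.98 to 1.48 in mock culture in Irf4+/- cells. The summed level of 8 stromal and osteoblast markers, 6 of them above background on all 18 arrays, also lay lower after 18 h of IL-4, at 1.22 to 1.42 against 1.53 to 1.56 in mock culture of Irf4-/- cells and at 1.05 to 1.38 against 1.42 to 1.55 in mock culture of Irf4+/- cells. The brightest probe, here Cdh11, weighs most in such a sum. Taken singly, every one of the 8 overlapped mock culture in Irf4-/- cells. In Irf4+/- cells all but Col3a1 did, which read -5.54 to -4.73 at 18 h against -4.63 to -4.06 in mock culture. The part of these markers in the 18 h results was not tested. The single Irf4 probe read -0.97 to -0.53 in Irf4-/- mock cells and -1.80 to -0.36 in Irf4+/- mock cells, and it averaged 0.21 ± 0.23 higher (log2, SE) in Irf4-/- cells over the 3 conditions (adjusted p = 0.878, limma). It rose with IL-4 at 18 h in both, by 2.29 ± 0.39 in Irf4-/- cells (adjusted p = 0.00452) and by 2.37 ± 0.39 in Irf4+/- cells (adjusted p = 0.00284). Where it lies relative to the deleted sequence was not known here, so it does not check the genotypes, which are those of the labels throughout.

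IL-4 raised the 2 genes for the attachment receptor and the proton pump, Itgb3 and Atp6v0d2, and the fusion gene Ocstamp in both genotypes. The receptor gene Tnfrsf11a read lower at 4 h in every experiment of both genotypes. Its fall was called in Irf4+/- cells, and in Irf4-/- cells when the experiment was fitted as a block. A probe was called at an adjusted p under 0.05 in limma, adjusted over all probes tested. In Irf4-/- cells, 1 of 14 member probes passed after 4 h of IL-4, when 2.89% of all probes tested passed, and 3 of 14 passed after 18 h, when 2.60% of all did. In Irf4+/- cells, 2 of 14 passed after 4 h against 3.20% of all probes, and 4 of 14 passed after 18 h against 3.01% of all. Arrays of 1 experiment deviated together from their group means, and a fit with the experiment as a block called 5 of 14 member probes at 4 h and 5 at 18 h in Irf4-/- cells, against 15.0% and 14.4% of all probes in that fit. The same block gave 6 and 10 of 14 in Irf4+/- cells, against 15.3% and 12.5% of all probes. With normexp background correction, or in fits of the compared groups alone, 0 member probes passed at 4 h or between 4 h and 18 h in either genotype in limma. At most 1.62% of all probes passed in those fits. Between 3 and 7 member probes had an unadjusted p under 0.05 there, a count with no share of all probes to set beside it. In the limma fit of all 18 arrays without a block, 3405 of 27514 probes had such a p at 4 h in Irf4-/- cells. In Irf4+/- cells 3489 of 27513 did, so the member count is not read as a result. Where the block changed the call of a member probe against mock, both adjusted p-values are given. Each standard error comes from the fit that has no block, with 3 arrays per group. The p-values measure the spread between 3 experiments with pooled littermate marrow.

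**Figure D1:**
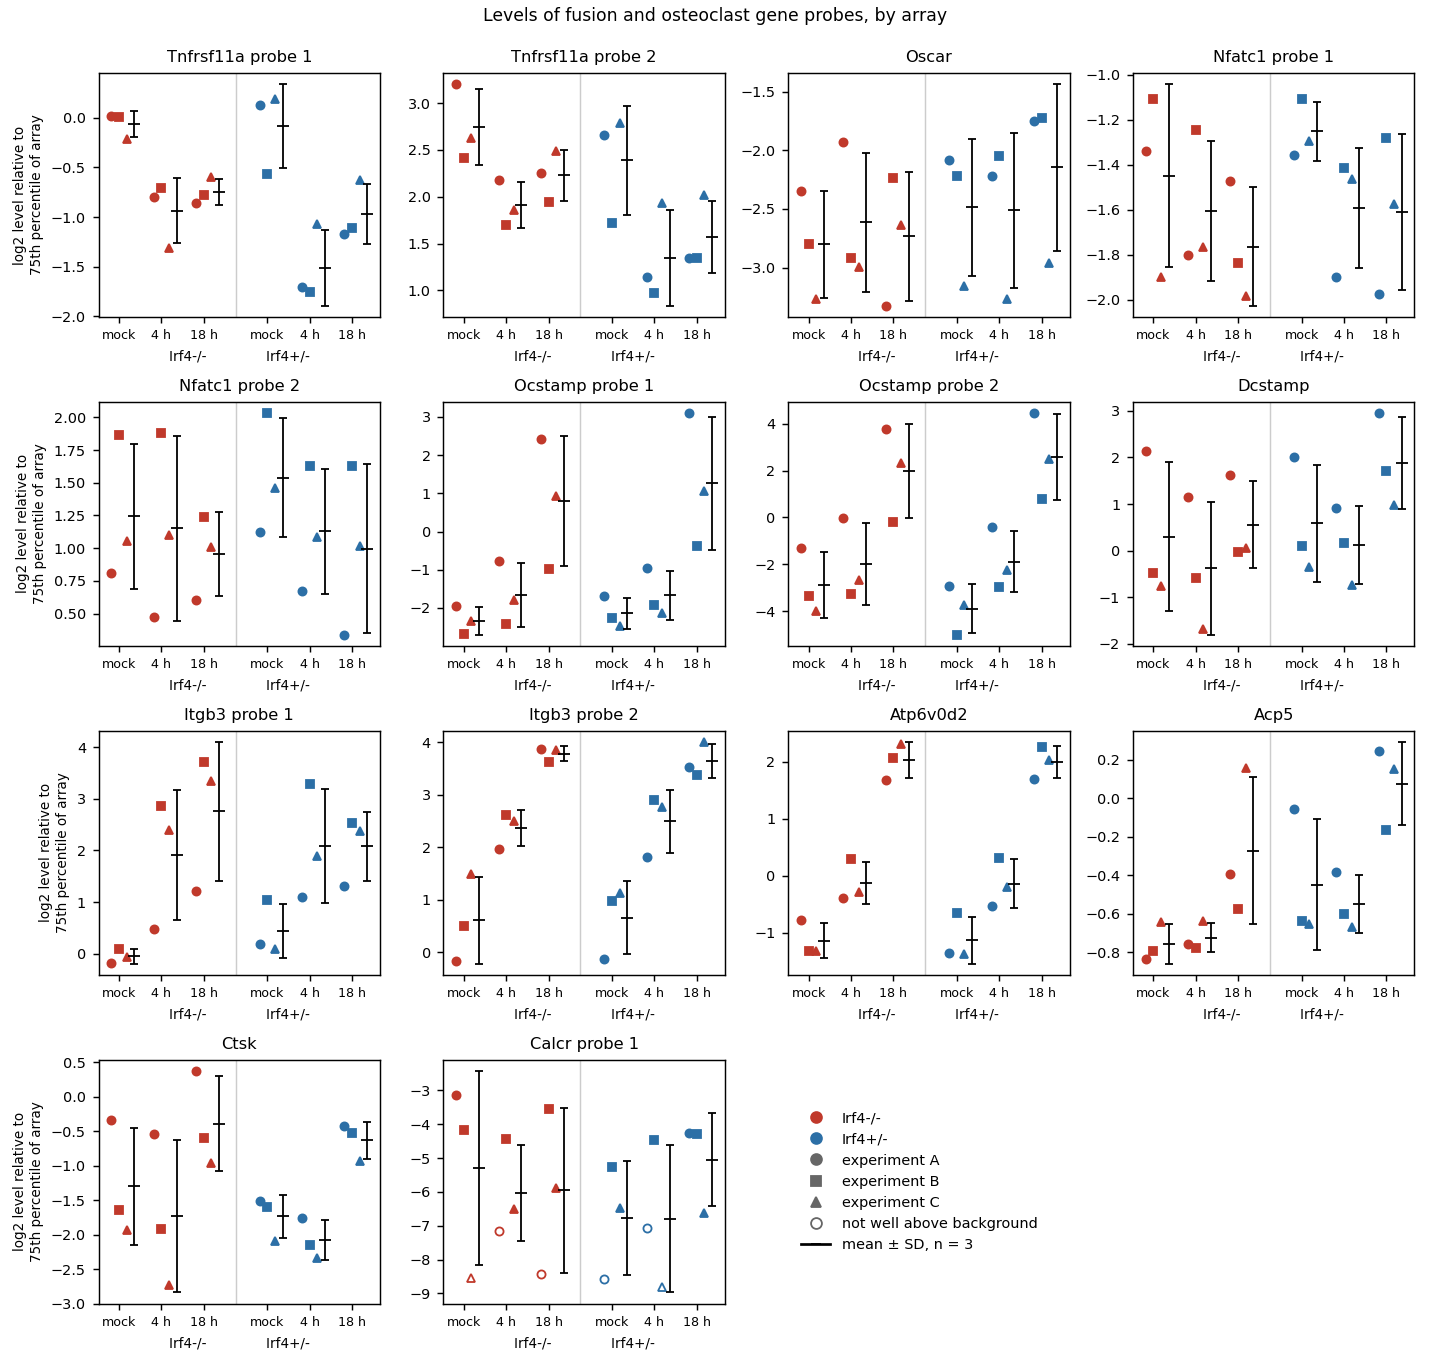
Level of each tested member probe on each of 18 arrays (log2 intensity relative to the array's 75th percentile; each panel has its own scale), with Irf4-/- in red to the left of Irf4+/- in blue, and mock, 4 h and 18 h of IL-4 from left to right. Symbols mark experiments A, B and C, open symbols arrays not well above background, and bars the mean ± SD of 3 arrays; Atp6v0d2 and Itgb3 probe 2 at 18 h lie above every mock array, and Ocstamp spreads widely between experiments at 18 h.

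Tnfrsf11a, which encodes RANK, the receptor for RANK ligand, was measured by 2 probes. Probe 1 read 0.02, 0.01 and -0.21 in Irf4-/- mock culture of experiments A, B and C, -0.79, -0.71 and -1.31 after 4 h of IL-4 and -0.86, -0.78 and -0.60 after 18 h. Values in Irf4+/- cells were 0.13, -0.57 and 0.19 in mock culture, -1.70, -1.76 and -1.07 after 4 h and -1.17, -1.11 and -0.62 after 18 h. Every IL-4 array was below every mock array of its genotype, at both times. The 4 h change in Irf4+/- cells was -1.43 ± 0.25 (log2, SE), a 2.69-fold lower level (adjusted p = 0.00512). In Irf4-/- cells the 4 h change was -0.88 ± 0.25, which passed with the experiment as a block and not without it (adjusted p = 0.0933 without the block and 0.0274 with it). After 18 h the difference was -0.69 ± 0.25 in Irf4-/- cells (adjusted p = 0.251, and 0.0766 with the block) and -0.89 ± 0.25 in Irf4+/- cells (adjusted p = 0.0893, and 0.0282 with the block).

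Probe 2 of Tnfrsf11a was also lower with IL-4 in every experiment. It read 3.20, 2.41 and 2.63 in Irf4-/- mock culture, 2.18, 1.70 and 1.86 after 4 h and 2.25, 1.94 and 2.49 after 18 h. The Irf4+/- values were 2.66, 1.72 and 2.79 in mock culture, 1.15, 0.97 and 1.93 after 4 h and 1.34, 1.35 and 2.02 after 18 h. The Irf4-/- 4 h arrays lay below all mock arrays, and the other IL-4 groups overlapped their mock group. Within each experiment the IL-4 array was the lower one in 6 of 6 pairs at 4 h (-1.52 to -0.71) and in 6 of 6 at 18 h. The 4 h change passed in both genotypes with the block and in neither without it, at -0.84 ± 0.33 in Irf4-/- cells (adjusted p = 0.282 without and 0.0312 with it) and -1.04 ± 0.33 in Irf4+/- cells (0.127 and 0.00939). At 18 h the change was -0.52 ± 0.33 in Irf4-/- cells (adjusted p = 0.644, and 0.162 with the block) and -0.82 ± 0.33 in Irf4+/- cells (0.331 and 0.0378). Without the Irf4+/- mock array of B, the Irf4+/- change passed for probe 2 at 4 h (adjusted p = 0.0464) and for probe 1 at 18 h (adjusted p = 0.0347).

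The promoter of Tnfrsf11a is printed because it was the member gene with a probe called lower with IL-4, for comparison with those of 2 resorption genes below. Sequences are those of RefSeq on GRCm38.p6, from 250 bases before to 50 bases after the gene start, 5′ to 3′ on the strand of the gene. Motifs were searched on both strands in all 32851 promoters of that table: TTC and GAA with 4 free bases between them for STAT6, GGAAA with its complement TTTCC for NFAT, CACGTG for the E-box, GAAA and GAAA with 2 free bases between them for IRF, and GGAA and GAAA with 2 free bases between them for PU.1 with IRF. The member entries used came from 5 genes, Tnfrsf11a, Oscar, Calcr, Acp5 and Ctsk, with 8 promoters in all. Member entries on an excluded chromosome were left out, while the full set of 32851 was not reduced this way. Nfatc1 is therefore not part of the member counts. The Tnfrsf11a promoter, chr1:105780473-105780772 on the plus strand, held none of these letters and is all in lower case.
Tnfrsf11a promoter: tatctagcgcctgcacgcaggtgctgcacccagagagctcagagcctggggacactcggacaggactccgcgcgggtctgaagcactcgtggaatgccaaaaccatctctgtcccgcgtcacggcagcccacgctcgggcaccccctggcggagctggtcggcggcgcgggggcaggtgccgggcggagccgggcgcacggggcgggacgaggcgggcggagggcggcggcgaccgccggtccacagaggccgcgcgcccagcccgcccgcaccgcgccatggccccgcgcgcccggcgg

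Oscar, a costimulatory receptor that signals through the FcRγ adaptor, did not move in 1 direction. Its level was -2.35, -2.80 and -3.27 in Irf4-/- mock culture, -1.93, -2.92 and -2.99 after 4 h and -3.33, -2.24 and -2.64 after 18 h. Its Irf4+/- levels were -2.09, -2.22 and -3.16 in mock culture, -2.22, -2.05 and -3.27 after 4 h and -1.75, -1.73 and -2.96 after 18 h. The groups overlapped throughout. The 18 h difference was 0.07 ± 0.46 in Irf4-/- cells (adjusted p = 0.971) and 0.34 ± 0.46 in Irf4+/- cells (adjusted p = 1).

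Calcr, the calcitonin receptor that marks mature osteoclasts, was at the edge of detection. Probe 1 was well above background on 12 of 18 arrays and entered the tests through the Irf4+/- 18 h group alone, the one group with 3 of 3 arrays above background. Its signal ranged from -8.82 to -3.15 over all arrays, and its 18 h difference was -0.66 ± 1.54 in Irf4-/- cells (adjusted p = 0.914) and 1.72 ± 1.54 in Irf4+/- cells (adjusted p = 0.969). Since that group is what let the probe in, its 18 h difference in Irf4+/- cells is given as a description.

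Nfatc1, the transcription factor that directs osteoclast differentiation, differed little between conditions and more between experiments. Probe 2 read 0.81, 1.87 and 1.06 in Irf4-/- mock culture, 0.47, 1.88 and 1.10 after 4 h and 0.61, 1.24 and 1.01 after 18 h. For Irf4+/- cells the values were 1.13, 2.03 and 1.46 in mock culture, 0.67, 1.63 and 1.09 after 4 h and 0.34, 1.63 and 1.02 after 18 h. Experiment B was the highest in all 6 groups, so mock and IL-4 groups overlapped. At 18 h both Nfatc1 probes were lower than mock within each experiment, in 6 of 6 pairs. The 18 h difference of probe 2 was -0.29 ± 0.42 in Irf4-/- cells (adjusted p = 0.857, and 0.185 with the block). For Irf4+/- cells it was -0.55 ± 0.42, which passed with the block and not without it (adjusted p = 0.902 without and 0.0209 with it). Probe 1 ranged from -1.98 to -1.11 over the 18 arrays and differed at 18 h by -0.32 ± 0.25 in Irf4-/- cells (adjusted p = 0.74) and by -0.36 ± 0.25 in Irf4+/- cells (adjusted p = 0.844).

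Ocstamp encodes a multi-pass membrane protein needed for fusion of osteoclasts and of giant cells, and it had the largest log2 change of the 14 member probes. Probe 2 read -1.30, -3.36 and -3.98 in Irf4-/- mock culture, -0.01, -3.29 and -2.69 after 4 h and 3.77, -0.19 and 2.32 after 18 h. The level in Irf4+/- cells was -2.92, -5.01 and -3.75 in mock culture, -0.43, -2.98 and -2.25 after 4 h and 4.45, 0.79 and 2.50 after 18 h. Each 18 h array lay above each mock array in both genotypes. At 18 h the arrays were ordered A, then C, then B in both genotypes, with experiment A the highest. The 18 h change was 4.85 ± 1.19 in Irf4-/- cells, 28.8-fold (adjusted p = 0.0428), and 6.47 ± 1.19 in Irf4+/- cells, 88.8-fold (adjusted p = 0.006). The Irf4-/- call was lost when any 1 of 11 arrays was left out, with adjusted p between 0.0193 and 0.19 over the 18 such fits. The arrays were the Irf4-/- mock arrays of B and C, 4 h array of C and 18 h arrays of A and C, and the Irf4+/- mock arrays of A, B and C, 4 h arrays of B and C and 18 h array of C. Single arrays also moved the size: the Irf4-/- fold was 15.4 without the 18 h array of A, 60.8 without that of B and 49.7 without the mock array of A, and the Irf4+/- fold was 46.4 without the 18 h array of A and 165.0 without that of B. Normexp background correction gave 11.8-fold in Irf4-/- cells (adjusted p = 0.181) and 31.0-fold in Irf4+/- cells (adjusted p = 0.0235). The Irf4-/- call was also lost with no filter on dim probes (adjusted p = 0.0753), and in a fit of the compared groups alone neither passed (0.12 in Irf4-/- and 0.0641 in Irf4+/- cells). After 4 h the change was 0.88 ± 1.19 in Irf4-/- cells (adjusted p = 0.868, and 0.225 with the block) and 2.01 ± 1.19 in Irf4+/- cells (0.588, and 0.0101 with the block).

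Ocstamp probe 1 gave the same direction with smaller changes. It read -1.96, -2.69 and -2.35 in Irf4-/- mock culture, -0.77, -2.42 and -1.79 after 4 h and 2.42, -0.98 and 0.94 after 18 h. Its Irf4+/- values were -1.68, -2.25 and -2.47 in mock culture, -0.95, -1.93 and -2.14 after 4 h and 3.10, -0.37 and 1.06 after 18 h. Groups at 18 h and in mock culture did not overlap in either genotype, and experiment A was again the highest at 18 h. The 18 h change was 3.12 ± 0.83 in Irf4-/- cells, which passed with the block (adjusted p = 0.0655 without and 0.00139 with it). Probe 1 changed in Irf4+/- cells by 3.40 ± 0.83, 10.6-fold (adjusted p = 0.0373). That call was lost when any 1 of 10 arrays was left out, with adjusted p between 0.0115 and 0.181. The arrays concerned were the Irf4-/- mock arrays of B and C, 4 h array of C and 18 h array of C, and the Irf4+/- mock arrays of A, B and C, 4 h array of B and 18 h arrays of A and C. It was also lost with normexp (6.46-fold, adjusted p = 0.0994), no filter on dim probes (0.0662) and the compared groups alone (0.227). The Irf4+/- fold was 5.59 without the 18 h array of A and 18.6 without that of B. The Irf4-/- change also passed without the Irf4-/- 18 h array of B or the Irf4+/- 18 h array of A or B, with adjusted p down to 0.0163. Within experiments, both probes were higher than mock in 6 of 6 pairs at 4 h and in 6 of 6 at 18 h.

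Dcstamp, a related multi-pass protein required for cell fusion in osteoclasts and giant cells, varied by experiment more than by IL-4. Its level was 2.14, -0.49 and -0.76 in Irf4-/- mock culture, 1.14, -0.59 and -1.68 after 4 h and 1.63, -0.02 and 0.07 after 18 h. The Irf4+/- arrays gave 2.00, 0.09 and -0.34 in mock culture, 0.93, 0.17 and -0.73 after 4 h and 2.95, 1.71 and 0.99 after 18 h. Experiment A was the highest in all 6 groups, and mock and IL-4 groups overlapped. Read within experiments, the 18 h difference from mock was -0.51, 0.47 and 0.82 in Irf4-/- cells and 0.95, 1.62 and 1.33 in Irf4+/- cells. The 18 h difference was 0.26 ± 0.90 in Irf4-/- cells (adjusted p = 0.942, and 0.581 with the block). In Irf4+/- cells it was 1.30 ± 0.90 and passed with the block and not without it (adjusted p = 0.837 without and 0.0108 with it). The difference between the genotypes in this response was -1.04 ± 1.27 (adjusted p = 1 with and without the block), so the responses are not shown to differ. At 4 h Dcstamp was lower than mock in 5 of 6 pairs, at -0.67 ± 0.90 in Irf4-/- cells (adjusted p = 0.866) and -0.47 ± 0.90 in Irf4+/- cells (adjusted p = 0.991).

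Itgb3 encodes the integrin β3 chain, which pairs with αv as the vitronectin receptor by which osteoclasts hold on to bone. Probe 2 read -0.16, 0.51 and 1.48 in Irf4-/- mock culture, 1.98, 2.62 and 2.50 after 4 h and 3.87, 3.62 and 3.86 after 18 h. Values in Irf4+/- cells were -0.14, 0.97 and 1.13 in mock culture, 1.81, 2.90 and 2.77 after 4 h and 3.54, 3.38 and 4.01 after 18 h. The 3 conditions did not overlap within either genotype and stepped upward with time. The 4 h change was 1.76 ± 0.42 in Irf4-/- cells, 3.38-fold (adjusted p = 0.0342), and 1.83 ± 0.42 in Irf4+/- cells, 3.57-fold (adjusted p = 0.025). The 18 h change was 3.17 ± 0.42 in Irf4-/- cells, 9.03-fold (adjusted p = 0.000551), and 2.98 ± 0.42 in Irf4+/- cells, 7.91-fold (adjusted p = 0.000782). The 4 h calls were the weaker ones. In Irf4-/- cells the call was lost without any 1 of 5 arrays, the mock arrays of A and B and the 4 h arrays of A, B and C, with adjusted p up to 0.153. For Irf4+/- cells it was lost without the mock array of A or the 4 h array of B or C, with adjusted p up to 0.114.

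Itgb3 probe 1 also read higher with IL-4 but spread more between experiments. Its level was -0.19, 0.09 and -0.06 in Irf4-/- mock culture, 0.47, 2.85 and 2.40 after 4 h and 1.22, 3.71 and 3.34 after 18 h. Its Irf4+/- levels were 0.19, 1.05 and 0.10 in mock culture, 1.10, 3.28 and 1.90 after 4 h and 1.32, 2.54 and 2.37 after 18 h. Experiment A was the lowest of the 3 in all 4 IL-4 groups. All 4 changes passed with the block and none without it. At 4 h they were 1.96 ± 0.71 in Irf4-/- cells (adjusted p = 0.21 without and 0.00704 with it) and 1.65 ± 0.71 in Irf4+/- cells (0.328 and 0.0171). At 18 h they were 2.81 ± 0.71 in Irf4-/- cells (0.0512 and 0.000769) and 1.63 ± 0.71 in Irf4+/- cells (0.4 and 0.0208). The 18 h change in Irf4-/- cells also passed without the 4 h or 18 h array of A in Irf4-/- cells or the 4 h array of A or B in Irf4+/- cells, with adjusted p down to 0.0138. Both probes read higher with IL-4, and in Irf4+/- cells the 18 h change of probe 1 was the smaller. The level of probe 1 followed those of Fgl1 and Dcaf12l2 with r = 0.994 over the 18 arrays, and whether it reads Itgb3 alone was not tested.

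Atp6v0d2 encodes the d2 subunit of the membrane part of the V-ATPase, the proton pump that acidifies the resorption space, and it is also needed for osteoclast fusion. It read -0.78, -1.32 and -1.32 in Irf4-/- mock culture, -0.39, 0.28 and -0.29 after 4 h and 1.68, 2.07 and 2.32 after 18 h. For Irf4+/- cells the values were -1.36, -0.66 and -1.38 in mock culture, -0.54, 0.32 and -0.20 after 4 h and 1.69, 2.25 and 2.02 after 18 h. Within each genotype the 3 conditions did not overlap, and the arrays of a condition lay close together. The means ± SD at 18 h were 2.02 ± 0.32 in Irf4-/- cells and 1.99 ± 0.28 in Irf4+/- cells (n = 3 each). The 18 h change was 3.16 ± 0.29 in Irf4-/- cells, 8.94-fold (adjusted p = 1.96e-05), and 3.12 ± 0.29 in Irf4+/- cells, 8.69-fold (adjusted p = 2.2e-05). At 4 h the change passed with the block and not without it, at 1.01 ± 0.29 in Irf4-/- cells (adjusted p = 0.0886 without and 0.0118 with it) and 0.99 ± 0.29 in Irf4+/- cells (0.0896 and 0.0122).

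Acp5, the tartrate-resistant acid phosphatase used to stain osteoclasts, read higher than mock at 18 h in 6 of 6 pairs without passing the test. Its level was -0.83, -0.80 and -0.64 in Irf4-/- mock culture, -0.76, -0.78 and -0.64 after 4 h and -0.39, -0.58 and 0.16 after 18 h. The level in Irf4+/- cells was -0.06, -0.64 and -0.65 in mock culture, -0.38, -0.60 and -0.67 after 4 h and 0.24, -0.17 and 0.15 after 18 h. The Irf4-/- 18 h arrays lay above the Irf4-/- mock arrays, whereas in Irf4+/- cells the mock array of A overlapped the 18 h group. The 18 h difference was 0.49 ± 0.21 in Irf4-/- cells (adjusted p = 0.382, and 0.0923 with the block) and 0.53 ± 0.21 in Irf4+/- cells (0.331 and 0.0815).

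Ctsk, cathepsin K, the protease that degrades bone collagen, was lower than mock at 4 h and higher at 18 h within every experiment. It read -0.34, -1.64 and -1.93 in Irf4-/- mock culture, -0.55, -1.92 and -2.73 after 4 h and 0.37, -0.60 and -0.96 after 18 h. The Irf4+/- arrays gave -1.51, -1.61 and -2.09 in mock culture, -1.77, -2.15 and -2.34 after 4 h and -0.42, -0.53 and -0.94 after 18 h. The Irf4-/- arrays of experiment A stood above the other 2 experiments in every condition, so Irf4-/- groups overlapped, while in Irf4+/- cells the 18 h arrays lay above all mock arrays. Within experiments the difference from mock was -0.80 to -0.21 in 6 of 6 pairs at 4 h and 0.71 to 1.16 in 6 of 6 pairs at 18 h. The 18 h difference was 0.91 ± 0.51 in Irf4-/- cells (adjusted p = 0.564, and 0.0521 with the block), and it passed with slide as a fixed term (0.0081), slide as a random term (0.00319) or scan day (0.0346). In Irf4+/- cells it was 1.11 ± 0.51, which passed with the block and not without it (adjusted p = 0.456 without and 0.0226 with it). There it also passed with slide as a fixed term (0.0046), slide as a random term (0.00117) or scan day (0.0112). The 4 h difference was -0.43 ± 0.51 in Irf4-/- cells (adjusted p = 0.844) and -0.35 ± 0.51 in Irf4+/- cells (adjusted p = 0.967).

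The promoters of Acp5 and Ctsk, 2 resorption genes known as NFATc1 targets, are printed with the motif matches in capitals. The Acp5 entry is the one of its 3 that held a STAT6 match, chr9:22130549-22130848 on the minus strand, and its capitals mark that match, starting at position -110 from the gene start, and NFAT matches starting at positions -117 and -37. The Ctsk entry, chr3:95498960-95499259 on the plus strand, has an NFAT match that begins at the start base itself, and none of the capitalised matches overlap.
Acp5 promoter: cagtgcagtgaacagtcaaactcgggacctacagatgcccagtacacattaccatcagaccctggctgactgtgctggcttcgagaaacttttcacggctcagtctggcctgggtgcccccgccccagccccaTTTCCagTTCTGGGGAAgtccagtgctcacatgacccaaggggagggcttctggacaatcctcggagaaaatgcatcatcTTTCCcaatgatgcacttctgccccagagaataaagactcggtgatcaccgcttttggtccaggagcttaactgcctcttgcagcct
Ctsk promoter: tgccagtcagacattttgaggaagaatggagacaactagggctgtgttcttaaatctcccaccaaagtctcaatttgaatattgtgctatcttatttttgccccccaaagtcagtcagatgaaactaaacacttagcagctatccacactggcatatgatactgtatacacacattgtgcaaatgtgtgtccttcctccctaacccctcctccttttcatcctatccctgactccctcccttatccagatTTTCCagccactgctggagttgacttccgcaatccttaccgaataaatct
The STAT6 letters occurred in 1 of 8 member promoters and in 6.95% of all promoters, and the NFAT letters in 6 of 8 and in 61.3% of all. The E-box, IRF and PU.1 with IRF letters occurred in 0 of 8 member promoters, and in 7.15%, 3.44% and 2.72% of all. A match is a description of these letters in this window and not a binding site, and the absence of one says nothing of the factor.

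**Figure D2:**
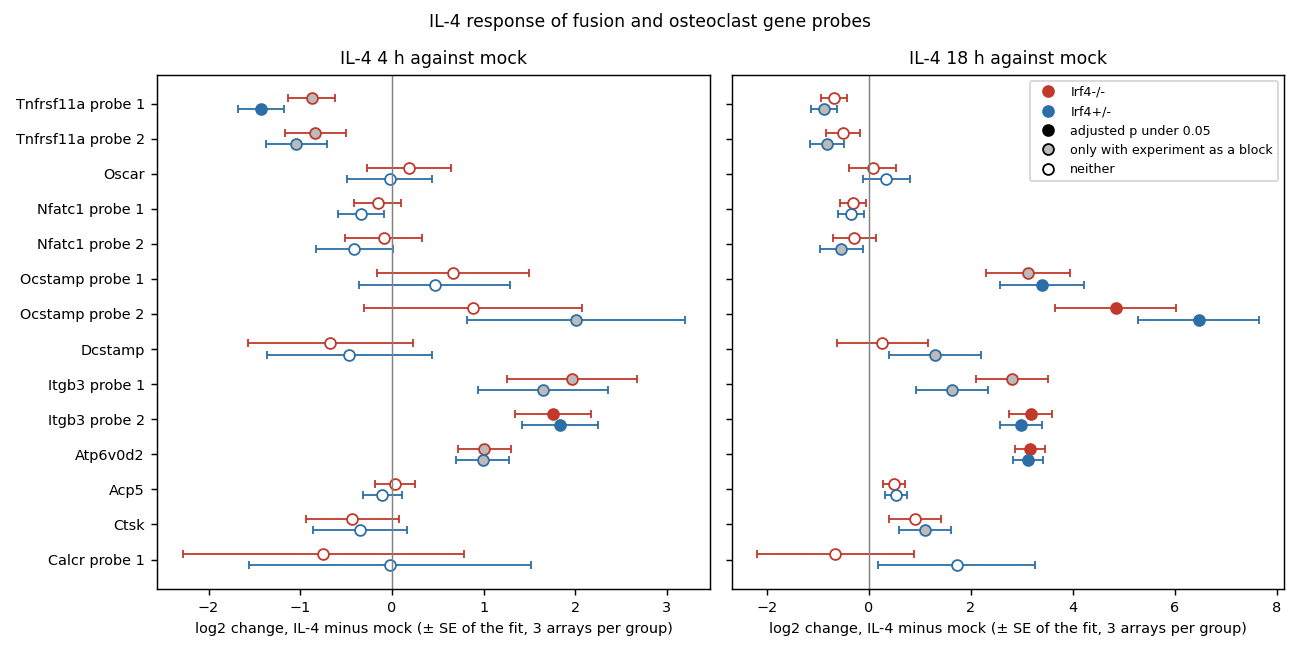
Log2 change of each tested member probe after 4 h (left) and 18 h (right) of IL-4 against mock, with Irf4-/- in red above Irf4+/- in blue; bars are the standard error of the fit over 3 arrays per group. Filled points passed an adjusted p of 0.05, grey points only with the experiment as a block and open points neither; Atp6v0d2 changed by 3.16 in Irf4-/- and 3.12 in Irf4+/- cells at 18 h.

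Between 4 h and 18 h of IL-4, Atp6v0d2 rose further, by 2.15 ± 0.29 in Irf4-/- cells (adjusted p = 0.00376) and by 2.13 ± 0.29 in Irf4+/- cells (adjusted p = 0.00241). It was the 1 member probe of 14 to pass in each genotype, when 0.374% of all probes tested passed in Irf4-/- cells and 0.774% in Irf4+/- cells. With the experiment as a block, 5 of 14 passed in Irf4-/- cells, against 5.38% of all probes, and 7 of 14 in Irf4+/- cells, against 8.44% of all. Those further probes included both of Ocstamp. Its probe 2 was 3.96 ± 1.19 higher at 18 h than at 4 h in Irf4-/- cells (adjusted p = 0.294 without and 0.000579 with the block) and 4.46 ± 1.19 higher in Irf4+/- cells (0.127 and 0.000151). Itgb3 probe 2 was higher by 1.42 ± 0.42 in Irf4-/- cells (0.284 and 0.0157) and by 1.15 ± 0.42 in Irf4+/- cells (0.356 and 0.0309). Itgb3 probe 1 differed by 0.85 ± 0.71 in Irf4-/- cells (adjusted p = 1, and 0.297 with the block) and by -0.02 ± 0.71 in Irf4+/- cells (1 and 0.991). Ctsk was higher by 1.34 ± 0.51 in Irf4-/- cells (0.52 and 0.0184) and by 1.45 ± 0.51 in Irf4+/- cells (0.32 and 0.00856). Dcstamp and Acp5 passed with the block in Irf4+/- cells, at 1.76 ± 0.90 (0.692 and 0.00339) and 0.63 ± 0.21 (0.299 and 0.0498). These comparisons share their 18 h and 4 h arrays with those against mock, so their values are not independent of them.

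The genotypes were compared to ask whether loss of Irf4 alters these genes in mock culture, with IL-4, or in their response to it. In limma, 0 of 14 member probes passed in mock culture, at 4 h, at 18 h, averaged over the 3 conditions, or in the difference of the 4 h or 18 h response, and 0% of all probes tested passed in each of these 6 comparisons. Of 7 neutrophil markers, 6 were on the array and 5 of these were above background on all 18 arrays. Their summed level lay between 4.02 and 5.74 in Irf4-/- against 4.16 and 4.38 in Irf4+/- mock cells, and between 3.86 and 5.68 against 3.71 and 4.65 at 18 h. S100a9, the brightest of them, had a median of 4.02 in Irf4-/- and 4.03 in Irf4+/- mock cells, and of 4.05 and 3.61 at 18 h. Its highest Irf4-/- array read 5.40 in mock culture and 5.33 at 18 h, so a single array per group set the high end. The part of these markers in these comparisons was not tested. At an unadjusted p under 0.05 there were 0 member probes in mock culture and at 18 h, 1 at 4 h (Tnfrsf11a probe 1), 2 in the average (Tnfrsf11a probe 2 and Acp5) and 0 in both differences of response. Of 27513 probes in these comparisons, 608 reached that p in mock culture, 201 at 4 h, 763 at 18 h and 2297 in the average. In the 4 h and 18 h differences of response 86 and 118 did. Except in the average, these counts lie below the 0.05 share that the threshold itself allows. The fit without a block leaves out the pairing by experiment, so its 0 calls do not show the genotypes to be alike. With the experiment as a block, 2 member probes passed in the average, when 6.80% of all probes did: Tnfrsf11a probe 2 and Dcstamp. With that block 0.0218% of all probes passed in mock culture, 0.0254% at 4 h and 0.185% at 18 h, and no member probe was among them.

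Tnfrsf11a probe 2 averaged 0.53 ± 0.19 higher in Irf4-/- cells (adjusted p = 0.508, and 0.0401 with the block), while probe 1 averaged 0.27 ± 0.15 (adjusted p = 0.671, and 0.237 with the block). At 18 h the Irf4-/- array read higher than the Irf4+/- array for probe 2 in all 3 experiments, by 0.91, 0.60 and 0.47. Dcstamp differed by -0.70 ± 0.52 on the log2 scale (adjusted p = 0.787, and 0.0321 with the block). Its Irf4-/- minus Irf4+/- difference was 0.13, -0.58 and -0.42 in mock culture of A, B and C, then 0.21, -0.75 and -0.95 at 4 h, then -1.32, -1.73 and -0.92 at 18 h. The last of these were all of 1 sign, and their fitted value of -1.32 ± 0.90 did not pass (adjusted p = 1, and 0.112 with the block). Both Ocstamp probes also read lower in Irf4-/- cells at 18 h in all 3 experiments, at -0.68, -0.61 and -0.12 for probe 1 and at -0.68, -0.98 and -0.18 for probe 2, and neither passed. The Atp6v0d2 difference at 18 h was 0.03 ± 0.29. In experiments A and B each genotype was on a slide of its own, so there genotype and slide cannot be told apart. In A the genotypes were also scanned on different days. In C the genotypes were on different slides within each condition, and the 18 h and mock arrays of each genotype were too. With slide as a fixed term, the average was -0.92 for Dcstamp (adjusted p = 0.864) and -0.10 for Tnfrsf11a probe 2 (adjusted p = 0.967). The only slide that held both genotypes carried the Irf4+/- 18 h array and the Irf4-/- mock array of C. That fit links the genotypes through this slide alone, so it cannot show whether a genotype difference remains once slide is accounted for.

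**Figure D3:**
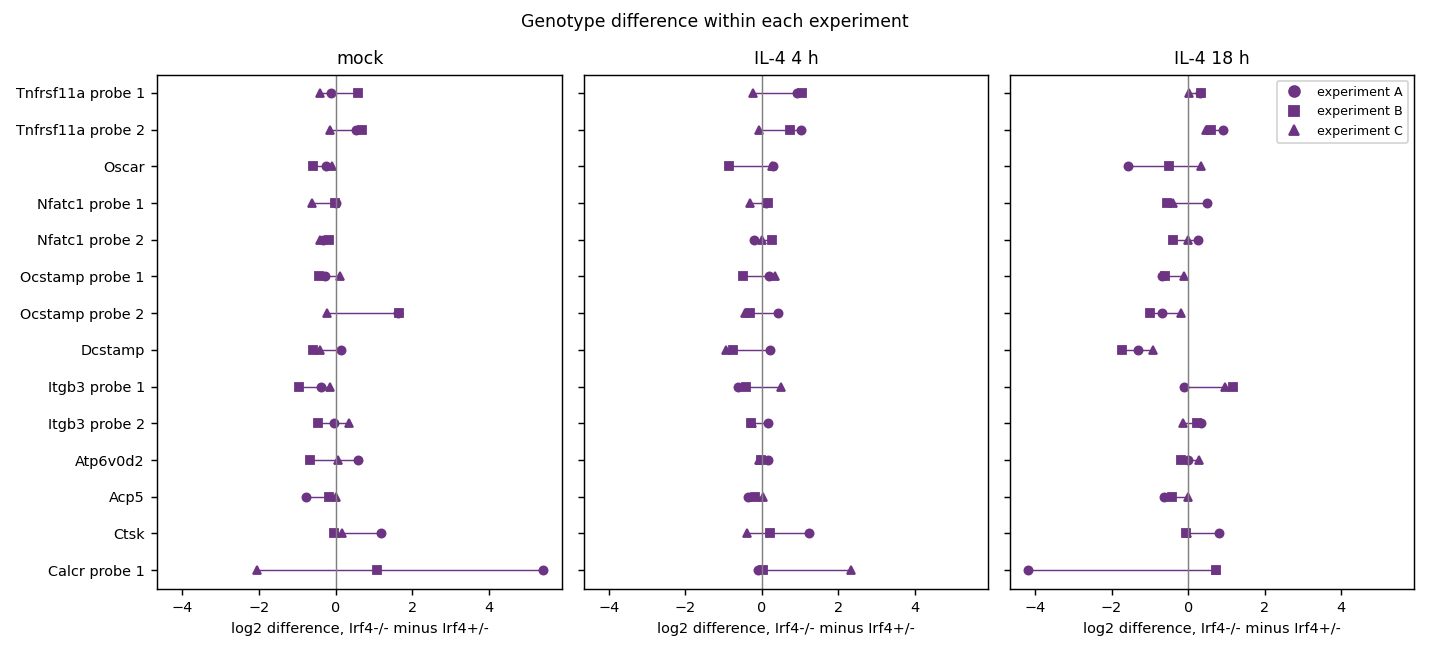
Irf4-/- minus Irf4+/- difference in log2 level of each tested member probe within experiments A, B and C, in mock culture, at 4 h and at 18 h of IL-4; each point is 1 pair of arrays and lines join the lowest and highest. Dcstamp at 18 h lies at -1.32, -1.73 and -0.92, and the Atp6v0d2 points in mock culture lie on both sides of 0.

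Other genes of the osteoclast pathway were followed as 8 lists by role, each gene by its tested probe of highest mean signal, with the same call. Of the genes for RANK and ITAM signalling, 21 of 22 were tested. Syk, the kinase that reads ITAM adaptors, fell at 4 h in both genotypes, with a change of -0.66 ± 0.15 in Irf4-/- cells (adjusted p = 0.0253) and of -0.88 ± 0.15 in Irf4+/- cells (adjusted p = 0.00359). It was the 1 of 21 called in Irf4-/- cells at 4 h. In Irf4+/- cells 2 of 21 fell at 4 h and 2 at 18 h, among them the phospholipase gene Plcg2 at both times (-0.52 and -0.61) and Sirpb1a at 18 h (-1.44). The list's median at 4 h was -0.13 in Irf4-/- cells, beside 0.04 over all genes tested, and -0.17 in Irf4+/- cells, beside -0.04. With the block, 5 of 21 fell at 4 h and 4 at 18 h in Irf4+/- cells, beside 15.3% and 12.5% of all probes called in either direction.

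Among 20 transcription factors of osteoclasts, 2 rose and 2 fell at 4 h in Irf4-/- cells and 2 rose and 1 fell in Irf4+/- cells. Fos, the AP-1 subunit without which osteoclasts do not form, fell at 4 h, with a change of -2.84 ± 0.43 in Irf4-/- cells (adjusted p = 0.00182) and of -2.77 ± 0.43 in Irf4+/- cells (adjusted p = 0.00198). Fosl2, another Fos family member, rose at both times, by 2.33 and 2.13 in Irf4-/- cells and by 2.16 and 2.20 in Irf4+/- cells. Ppargc1b, a coactivator of mitochondrial genes, rose at 4 h by 1.42 in Irf4-/- cells and by 1.85 in Irf4+/- cells, and at 18 h by 1.79 in Irf4+/- cells. Stat6, the IL-4 signal transducer, fell at 4 h in Irf4-/- cells (-0.57, adjusted p = 0.0415). At 18 h, 1 rose and 1 fell in Irf4-/- cells and 2 rose and 2 fell in Irf4+/- cells, and the block called 3 up and 2 down in each genotype at that time, when it called 14.4% of all probes in Irf4-/- cells and 12.5% in Irf4+/- cells. The fallen ones were the NF-κB subunit gene Relb in both (-1.06 in Irf4-/- and -1.18 in Irf4+/-) and Nfkb2 in Irf4+/- (-0.89). From 4 h to 18 h in Irf4+/- cells Fos rose by 2.21 and Tfeb by 0.94. The median at 4 h was -0.13 in Irf4-/- cells, beside 0.04 over all genes, and -0.33 in Irf4+/- cells, beside -0.04.

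Among 26 macrophage fusion receptors, 3 rose at each time in each genotype: Cdh1, Pecam1 and Mrc1. Cdh1, E-cadherin, rose by 6.28 ± 0.87 at 4 h and 5.35 ± 0.87 at 18 h in Irf4-/- cells, and by 6.50 ± 0.87 and 5.47 ± 0.87 in Irf4+/- cells, where 2 of the 3 mock arrays were well above background. Pecam1, an adhesion molecule, rose by 4.27 and 3.17 in Irf4-/- cells and by 3.82 and 2.98 in Irf4+/- cells. Mrc1, the mannose receptor, rose by 1.43 and 1.87 in Irf4-/- cells and by 1.50 and 1.59 in Irf4+/- cells. Ccr2, a chemokine receptor, fell at 4 h (-1.80) and Spp1, osteopontin, at 18 h (-1.25) in Irf4+/- cells. Medians of that list at 18 h were 0.34 in Irf4-/- cells, beside 0.07 over all genes, and 0.25 in Irf4+/- cells, beside 0.01, and the block called 9 up and 2 down in Irf4-/- cells and 7 up and 3 down in Irf4+/- cells at 18 h, beside 14.4% and 12.5% of all probes.

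In the resorption machinery, 1 of 18 genes was called at each time in each genotype and it fell. This was Mmp14, a membrane-bound matrix metalloprotease, which changed by -1.33 ± 0.30 at 4 h and -3.16 ± 0.30 at 18 h in Irf4-/- cells, and by -1.19 ± 0.30 and -3.26 ± 0.30 in Irf4+/- cells. The 18 h adjusted p-values were 2.62e-05 in Irf4-/- cells and 2.17e-05 in Irf4+/- cells. With the block, 4 of 18 fell at 4 h in Irf4-/- cells and 5 in Irf4+/- cells, and at 18 h 3 rose and 1 fell in Irf4-/- cells and 3 rose and 2 fell in Irf4+/- cells. That fit called 15.0% of all probes at 4 h and 14.4% at 18 h in Irf4-/- cells, and 15.3% and 12.5% in Irf4+/- cells. Of 19 other V-ATPase subunits and accessory proteins, 17 were tested and 1 was called, Atp6v0a1 at 18 h in Irf4+/- cells (1.55 ± 0.36, adjusted p = 0.0273). The median of these subunits at 18 h was 0.29 in Irf4-/- cells and 0.21 in Irf4+/- cells, beside 0.07 and 0.01 over all genes. Atp6v0d1, the widely expressed paralogue of Atp6v0d2, differed at 18 h by 0.33 ± 0.17 in Irf4-/- cells (adjusted p = 0.485) and by 0.23 ± 0.17 in Irf4+/- cells (adjusted p = 0.876).

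Among integrin chains and podosome genes, 19 of 20 were tested. Itgax, the αX chain, rose at 18 h by 2.30 ± 0.23 in Irf4-/- cells (adjusted p = 4.99e-05) and by 2.87 ± 0.23 in Irf4+/- cells (adjusted p = 6.41e-06). Itgav, the αv partner of integrin β3, fell at 18 h, with a change of -0.69 ± 0.17 in Irf4-/- cells (adjusted p = 0.037) and of -0.77 ± 0.17 in Irf4+/- cells (adjusted p = 0.0188), while Itgb3 probe 2 rose. Ptk2b, the kinase Pyk2 of the podosome belt, fell at 4 h (-1.05 in Irf4-/- cells and -1.43 in Irf4+/- cells) and at 18 h in Irf4+/- cells (-1.09). With the block, 3 of 19 fell at 4 h in Irf4-/- cells and 5 in Irf4+/- cells, beside 15.0% and 15.3% of all probes called in either direction. The β chains Itgb1 and Itgb5, which can also pair with αv, differed at 18 h by -0.02 ± 0.15 and 0.14 ± 0.29 in Irf4-/- cells and by -0.15 ± 0.15 and -0.40 ± 0.29 in Irf4+/- cells, and none passed. In the list drawn up for the M-CSF receptor axis, 1 of 8 genes was called at each time. This was Csf2rb, a shared cytokine receptor chain that is not part of the CSF1 receptor. It rose by 1.18 and 1.71 in Irf4-/- cells and by 1.22 and 1.70 in Irf4+/- cells. For the CSF1 receptor gene itself the 18 h change was -0.13 ± 0.17 in Irf4-/- cells (adjusted p = 0.848, limma) and -0.25 ± 0.17 in Irf4+/- cells (0.805). Csf1r, the CSF1 receptor, read 5.70 to 6.28 in the 9 Irf4-/- arrays and 6.22 to 6.69 in the 9 Irf4+/- arrays, an average difference of -0.40 ± 0.10 (adjusted p = 0.309, and 0.0182 with the block).

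Of the ligand side, Tnfsf11, which encodes RANK ligand, was well above background on 0 of 18 arrays. Tnfrsf11b, the decoy receptor osteoprotegerin, was above background on all 18 arrays at -5.97 to -4.64, and differed at 18 h by 0.53 ± 0.34 in Irf4-/- cells (adjusted p = 0.646) and by 0.05 ± 0.34 in Irf4+/- cells (adjusted p = 1). Acp2, a lysosomal acid phosphatase, differed at 18 h by -0.38 ± 0.30 in Irf4-/- cells (adjusted p = 0.741, and 0.05 with the block) and by -0.61 ± 0.30 in Irf4+/- cells (0.52 and 0.00399). The Nfatc1 paralogue Nfatc2 differed by -1.16 ± 0.88 (adjusted p = 0.715) at 18 h in Irf4-/- cells and by -1.20 ± 0.88 (adjusted p = 0.876) in Irf4+/- cells. Nfatc3 differed by -0.11 ± 0.24 (adjusted p = 0.908) in Irf4-/- cells and by -0.29 ± 0.24 (adjusted p = 0.934) in Irf4+/- cells, and neither paralogue passed.

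The genes whose levels followed each member most closely over the 18 arrays were found by Pearson's r among 16819 genes, as a description without a test, since the arrays share experiments, slides and IL-4 treatment. Ocstamp probe 2 was followed by Chil4 (r = 0.969), Chil3 (0.965) and Rbp4 (0.961), and probe 1 by Btbd17 (0.968), Chil4 (0.960) and Ear3 (0.957), where Chil3 and Chil4 encode chitinase-like proteins of IL-4-treated mouse macrophages. Atp6v0d2 was followed by F10 (0.953), Tmem202 (0.951) and Fbxl2 (0.940). Dcstamp was followed by Ramp1 (0.955), Clec4b1 (0.930) and Ptprn (0.926). The Itgb3 probes shared no top gene: probe 2 was followed by Pla2g5 (0.960), Tppp3 (0.959) and Mgl2 (0.951), and probe 1 by Fgl1 (0.994) and Dcaf12l2 (0.994). Tnfrsf11a probe 1 was followed by Ptk2b (0.930), Tnf (0.928) and Plekhm3 (0.925), and probe 2 by Spred1 (0.933), Rybp (0.931) and Ehd1 (0.913). Acp5 was followed by Capg (0.904), Sh3glb2 (0.899) and Bnip3l (0.888), and Ctsk by Cracdl (0.923), Nck1 (0.918) and Trim37 (0.917). Nfatc1 probe 1 was followed by Tnrc18 (0.921), Nfatc3 (0.901) and Ckap5 (0.899), probe 2 by Il2rg (0.946), 1700066C05Rik (0.945) and Kcnab1 (0.943), Oscar by Fstl4 (0.921) and Calcr probe 1 by Usp22 (0.752). The remaining close transcripts of Itgb3 probe 1, Oscar and Calcr have no gene symbol on the array.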

How the data were processed

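Expression was measured in 18 BMM samples, 1 single-colour array each, grouped by their titles into 6 groups of 3. Per the file headers, the authors extracted each array with Agilent Feature Extraction (9.5.1 per the submitters' processing notes), and the deposited gProcessedSignal is a background-subtracted intensity with no scaling between arrays. The authors also deposited a table of log2 values, made by steps not given here. Each column followed the scaled log2 level used below less that of the Irf4+/- mock array in the same experiment (r of at least 0.9999), so those mock columns are 0 and carry no spread. This table served only as an alternative.

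Here log2 was taken of the intensity and the array's 75th percentile (719.2 to 1960.7) was subtracted. Control spots and 63 to 182 outlier spots per array were left out, and spots of 1 probe were averaged. No member probe was saturated. The number of arrays limits the precision. Of 41174 probes, 22951 were named through their accession in RefSeq tables, 6659 by a current symbol, 3109 by a synonym and 6119 by the array file's name as printed, while 2336 stayed unnamed. Promoters were matched by symbol.

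The fit was made in R 4.3.3 by limma 3.58.1, with statmod 1.5.0 for random blocks. It estimated 6 group means from all 18 arrays, p-values are two-sided and Benjamini-Hochberg adjusted over the probes tested, and the procedure was tested on simulated data. The experiment letter pairs the samples: the labels give littermates per experiment, and deviations from group means correlated above 0.1 in all 45 same-letter pairs of arrays (lowest 0.317, median 0.597). Alternatives changed the background correction, scaling, filter, probe choice, blocks for experiment, slide and scan day, the arrays fitted and the deposited table. The text names all 10 members, Irf4, fixed relatives, at most 4 called genes per list and comparison, and those with a symbol among the 3 genes most like each member. The members and lists were chosen with earlier results of these data known. Of the 8 lists, 1 is not reported here. Python 3.11.15 with pandas 2.3.3 and matplotlib 3.10.9 drew the plots.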

Additional observations from a re-analysis of the deposited data

Results flagged for a closer look

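The Atp6v0d2 level with IL-4 differed between the 2 exposure times in a direct comparison of the 18 h and 4 h arrays. Both times were read against the same 18 h mock culture, so IL-4 exposure and culture time cannot be told apart in it. At 18 h the level was 2.15 higher on the log2 scale than at 4 h in Irf4-/- cells (2.151 ± 0.29, SE, adjusted p = 0.00376, limma) and 2.13 higher in Irf4+/- cells (2.128 ± 0.29, adjusted p = 0.00241). The level was higher at 18 h than at 4 h in 3 of 3 experiments of each genotype. The limma call was lost with normexp (adjusted p = 0.103 in Irf4-/- and 0.119 in Irf4+/- cells). It was also lost in fits of the compared groups alone (0.16 and 0.195).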

How the results depend on the processing

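Over 5316 recomputed log2 values of member probes, 5145 stayed on their side of the threshold, 122 passed where they had not and 49 no longer passed. No called change turned its sign, while 313 values that passed neither way did, among changes of up to 1.01 in size; no cause was tested except where the setting itself shows it. Counts are member probes called in limma, in the order 4 h against mock, 18 h against mock and 18 h against 4 h (1, 3 and 1 in Irf4-/- cells; 2, 4 and 1 in Irf4+/- cells). With the experiment as a replicate block they were 5, 5 and 5 in Irf4-/- cells and 6, 10 and 7 in Irf4+/- cells, with 2 for the averaged genotype difference, and the block changed no other genotype count. With slide as a fixed term they were 4, 6 and 6, and 6, 8 and 5. With slide as a random term, added after seeing the data, they were 5, 8 and 6, and 6, 11 and 8. With scan day they were 3, 6 and 3 in Irf4-/- cells, and 5 at 4 h and 4 between times in Irf4+/- cells. The authors' deposited table, whose Irf4+/- mock columns hold no spread, gave 3, 5 and 2 in Irf4-/- cells, and 4 at 4 h and 5 between times in Irf4+/- cells. The 4 h count in Irf4-/- cells fell to 0 with normexp, median scaling, quantile normalization, no filter, and a fit of the compared groups alone. Of all probes, 0.752%, 2.18%, 2.79%, 1.36% and 1.62% passed there, in that order. Normexp also gave 0 between times in both genotypes and at 4 h in Irf4+/- cells, and shifted the median of all probes to 0.49 at 18 h in Irf4+/- cells, against 0.01. Without very dim spots, a setting added after seeing the data, it gave 5 at 18 h in Irf4-/- cells, beside 2.31% of all probes. Fits of the compared groups alone, with fewer arrays behind the spread, gave 0 between times in both genotypes, and 0 at 4 h and 2 at 18 h in Irf4+/- cells. Of all probes, 0% passed between times in each genotype, and 0.825% at 4 h and 0.505% at 18 h in Irf4+/- cells. In these settings with 0, between 3 and 7 member probes had an unadjusted p under 0.05, a count with no share of all probes to set beside it. In the limma fit of all 18 arrays without a block, 3405 and 3489 of all probes had such a p at 4 h in Irf4-/- and Irf4+/- cells. Between times 1861 and 2259 did. With 1 probe per gene 1 passed at 4 h in Irf4+/- cells, beside 3.49% of all. Leaving out 1 array gave 0 to 1 and 2 to 4 in Irf4-/- cells at 4 h and 18 h, and 1 to 3 and 3 to 4 in Irf4+/- cells. Over all probes these fits called 369 to 855 and 331 to 765 in Irf4-/- cells, and 528 to 938 and 514 to 866 in Irf4+/- cells.

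Over all probes, the block called 4134, 3966 and 1479 in Irf4-/- cells against 794, 716 and 103 without it, and 4211, 3430 and 2321 in Irf4+/- cells against 881, 827 and 213; for the averaged genotype difference it called 1872 against 0. Slide as a fixed term called 4594, 5096 and 3558 in Irf4-/- cells and 7177, 3911 and 2572 in Irf4+/- cells, and normexp 207, 150 and 6, and 233, 244 and 17. Slide as a random term called 23.5%, 23.2% and 17.9% of all probes in Irf4-/- cells and 30.1%, 19.1% and 15.4% in Irf4+/- cells. Scan day called 8.68%, 7.07% and 2.38%, and 9.57%, 7.25% and 4.06%, and the authors' deposited values 8.67%, 7.86% and 2.21%, and 9.54%, 7.74% and 3.94%. Median scaling turned the 4 h calls in Irf4+/- cells to 444 up and 211 down, against 503 up and 378 down.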
